A study of Homo sapiens with 4 samples.

Results

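FAIRE sites were examined around 9 genes that control aldosterone output, namely AGTR1, KCNJ5, KCNK3, KCNK9, CACNA1D, CACNA1H, CLCN2, CYP11B1 and CYP11B2. The genes were picked by name for their known function, with earlier results of these data known. A site was assigned to a gene when it lay in the annotated gene body or within 50 kb of it, among 20163 protein-coding genes annotated on the nuclear chromosomes. These windows took in 38 of the 34423 sites of the basal list and 42 of the 31219 sites of the overexpression list. FAIRE-seq recovers, from formaldehyde-fixed chromatin, the DNA that is depleted of nucleosomes. It was performed in H295R/TR SF-1 cells, which derive from 1 subclone of the adrenocortical tumor line H295R and carry a doxycycline-inducible copy of the nuclear receptor SF-1 (NR5A1). One library came from cells at basal SF-1 dosage, and the other from cells given doxycycline for 3 days to overexpress SF-1. Each condition had 1 FAIRE library, so no difference below has a replicate check or a p-value, and all intervals are exact (Clopper-Pearson) 95% intervals that cover counting error only. The lists held no read counts, depth is unknown, the SF-1 level could not be checked from them, and where a list has no site none was called, which does not show closed chromatin.

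In zona glomerulosa cells, angiotensin II acts through the receptor AGTR1 and plasma potassium acts through the membrane potential. The potassium channels KCNK3 and KCNK9 (TASK-1 and TASK-3) and KCNJ5 (GIRK4) keep the membrane polarized, and the chloride channel CLCN2 depolarizes it when opened. Depolarization opens the voltage-gated calcium channels CACNA1D (Cav1.3) and CACNA1H (Cav3.2), and calcium signaling raises transcription of CYP11B2, the aldosterone synthase gene. CYP11B1, its close neighbor on the same chromosome, encodes the 11β-hydroxylase of cortisol synthesis. Germline or somatic variants of several of these channels are known causes of primary aldosteronism.

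Sequences at the starts of the genes are given first, together with a site farther upstream of AGTR1 that was added for its SF-1 motif. They are given on the plus strand of GRCh37 (hg19), from 5′ to 3′, without annotated untranslated exon sequence, and capitals mark the SF-1 motif, searched as CAAGGTCA or CAAGGCCA on both strands. The first run ends at the base before AGTR1, the second lies 1472 bp upstream of it, the third lies in intron 1 of KCNJ5, and the fourth separates CLCN2 from the divergent gene POLR2H, a subunit of RNA polymerases.
AGTR1 shared site, part before the first exon, chr3:148415501-148415570: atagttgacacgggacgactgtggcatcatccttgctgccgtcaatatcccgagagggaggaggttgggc
AGTR1 overexpression-only site, chr3:148413851-148414099: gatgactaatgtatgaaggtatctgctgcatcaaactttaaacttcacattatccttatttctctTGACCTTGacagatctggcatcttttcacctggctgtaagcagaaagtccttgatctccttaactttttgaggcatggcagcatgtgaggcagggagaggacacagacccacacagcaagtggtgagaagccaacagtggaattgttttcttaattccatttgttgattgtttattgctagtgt
KCNJ5 basal-only site, chr11:128762051-128762149: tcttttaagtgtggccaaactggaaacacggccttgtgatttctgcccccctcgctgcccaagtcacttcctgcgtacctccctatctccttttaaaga
CLCN2 and POLR2H shared site, part between the genes, chr3:184079439-184079497: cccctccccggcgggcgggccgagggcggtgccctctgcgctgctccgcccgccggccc
The AGTR1 site called only in the overexpression list was shown because it holds the SF-1 motif. The motif reads TGACCTTG there because the match is on the minus strand. That site lies outside the 1 kb taken as gene start, and the runs at gene starts held no SF-1 motif.

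The next set holds the sites in gene bodies that were called in 1 condition and carried the SF-1 motif. Capitals mark that motif or the AP-1 motif, searched as TGACTCA or TGAGTCA.
KCNK3 basal-only site, chr2:26943201-26943499: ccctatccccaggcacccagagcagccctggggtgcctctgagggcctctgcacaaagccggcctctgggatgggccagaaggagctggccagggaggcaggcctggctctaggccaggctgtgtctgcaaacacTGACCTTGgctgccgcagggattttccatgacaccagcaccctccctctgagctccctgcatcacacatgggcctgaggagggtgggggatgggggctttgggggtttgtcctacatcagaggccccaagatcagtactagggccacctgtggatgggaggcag
CACNA1D basal-only site, chr3:53619701-53619849: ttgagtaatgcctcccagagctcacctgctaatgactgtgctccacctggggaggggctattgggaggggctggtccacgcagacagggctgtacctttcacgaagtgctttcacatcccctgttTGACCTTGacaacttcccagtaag
CACNA1D overexpression-only site, chr3:53455001-53455199: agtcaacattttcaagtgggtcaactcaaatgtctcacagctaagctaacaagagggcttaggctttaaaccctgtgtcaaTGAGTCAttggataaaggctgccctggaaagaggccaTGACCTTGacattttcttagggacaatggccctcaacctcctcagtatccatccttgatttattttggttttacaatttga
CACNA1D overexpression-only site in intron 3, chr3:53593701-53593949: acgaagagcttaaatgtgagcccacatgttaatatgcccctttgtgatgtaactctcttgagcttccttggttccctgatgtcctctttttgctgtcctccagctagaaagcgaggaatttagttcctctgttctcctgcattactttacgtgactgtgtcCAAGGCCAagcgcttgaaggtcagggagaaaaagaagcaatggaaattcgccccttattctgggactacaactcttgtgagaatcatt
CACNA1D overexpression-only site at the far end of intron 3, chr3:53676351-53676649: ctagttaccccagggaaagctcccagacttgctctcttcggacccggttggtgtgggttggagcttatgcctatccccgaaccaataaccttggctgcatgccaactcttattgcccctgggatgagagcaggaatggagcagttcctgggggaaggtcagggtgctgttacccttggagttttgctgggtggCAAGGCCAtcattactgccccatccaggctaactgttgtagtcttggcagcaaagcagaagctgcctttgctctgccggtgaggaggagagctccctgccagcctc
There were 2 such basal-only and 3 such overexpression-only sites, and 4 of them belonged to CACNA1D.

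A last set shows shared sites with motif matches, chosen after their positions were known. Capitals mark the motifs of SF-1 and AP-1 and the NBRE, the element of the NR4A nuclear receptors, searched as AAAGGTCA.
KCNJ5 shared site in intron 1, last 300 bases, chr11:128764650-128764949: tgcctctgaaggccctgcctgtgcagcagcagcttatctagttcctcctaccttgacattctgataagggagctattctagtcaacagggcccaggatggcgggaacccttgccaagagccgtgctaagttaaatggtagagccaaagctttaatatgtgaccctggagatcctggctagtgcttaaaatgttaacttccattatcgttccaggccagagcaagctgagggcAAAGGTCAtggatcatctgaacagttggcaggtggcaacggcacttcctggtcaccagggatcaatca
KCNK3 shared site in intron 1, 300 bases around its motifs, chr2:26947158-26947457: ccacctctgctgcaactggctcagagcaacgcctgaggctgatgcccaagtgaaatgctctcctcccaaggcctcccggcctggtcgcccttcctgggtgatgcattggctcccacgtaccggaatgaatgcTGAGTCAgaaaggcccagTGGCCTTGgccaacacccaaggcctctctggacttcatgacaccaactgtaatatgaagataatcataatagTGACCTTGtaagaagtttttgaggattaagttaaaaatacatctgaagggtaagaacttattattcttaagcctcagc
CACNA1H shared upstream site, chr16:1187651-1187949: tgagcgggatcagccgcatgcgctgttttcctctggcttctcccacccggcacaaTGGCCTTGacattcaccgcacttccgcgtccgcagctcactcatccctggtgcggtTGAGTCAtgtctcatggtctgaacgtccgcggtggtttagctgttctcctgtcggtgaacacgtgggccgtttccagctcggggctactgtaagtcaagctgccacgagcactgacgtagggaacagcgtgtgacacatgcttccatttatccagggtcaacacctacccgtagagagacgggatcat
The NBRE of the KCNJ5 site lay in the overexpression call but 33 bp beyond the end of the basal call.

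Both lists placed sites near 7 of the 9 genes, and KCNK9 and CYP11B1 had none. Of all protein-coding genes, 86.3% had a basal site in such a window and 86.5% an overexpression site, while 9.13% had a site of neither list. A shared site, meaning 1 bp or more in common with a site in the opposite list, was found at the same 7 genes, against 77.0% of all genes. Basal-only sites were found at 3 genes (KCNJ5, KCNK3 and CACNA1D), against 60.7% of all genes. Overexpression-only sites were found at 6 (AGTR1, KCNJ5, KCNK3, CACNA1D, CACNA1H and CLCN2), against 60.6%. With 9 genes and windows of unequal length these counts are descriptions.

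**Figure D1:**
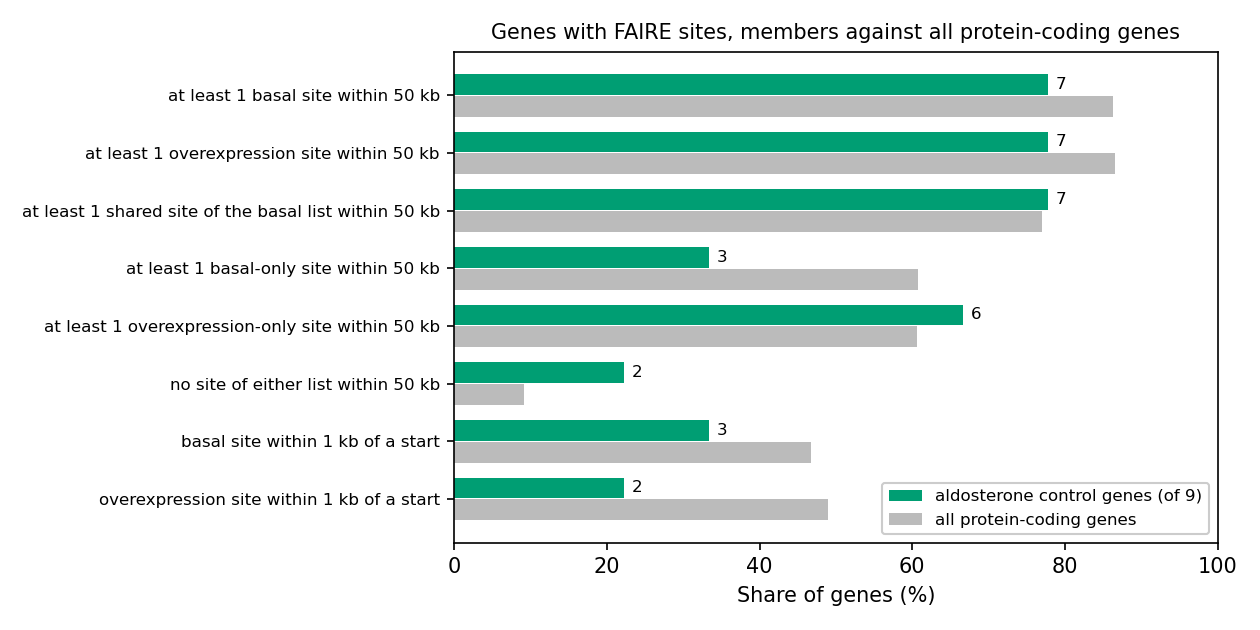
Share of genes in percent (horizontal axis) that met each criterion named on the vertical axis, for the 9 aldosterone control genes (green, number of genes at the bar end) and for all 20163 protein-coding genes (gray). Basal-only sites were found at 3 of the 9 genes, against 60.7% of all genes, and overexpression-only sites at 6, against 60.6%.

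Of the 38 basal sites, 29 were shared and 9 were basal-only, a shared part of 76.3% (interval 59.8 to 88.6). In the whole basal list this part was 54.2% (53.7 to 54.7). Of the 42 overexpression sites, 29 were shared and 13 were overexpression-only, a shared part of 69.0% (52.9 to 82.4), against 59.7% (59.1 to 60.2) in the whole list. The 2 comparisons were repeated on stricter lists, where sharing was decided anew among the sites kept. A site whose partner was cut thus counted as condition-only there. The basal comparison was not stable, whereas the overexpression share stayed above that of all sites kept, by a smaller margin. Among sites at least 249 bp wide there were 29 basal and 26 overexpression sites, of which 17 in each list were shared, or 58.6% and 65.4%, against 55.5% and 60.8% of all sites of that width. Among the first 50% of each list by peak number there were 27 and 19 sites, of which 13 were shared, or 48.1% and 68.4%, against 57.1% and 62.9% of all such sites. The basal share thus fell below that of all sites in the first 50%. The same rule of sharing was applied to both shares, and the reason for the difference was not tested. The windows held 2.33 basal and 2.57 overexpression sites per 100 kb. The median over the windows of all protein-coding genes was 1.89 (quartiles 0.858 and 3.37) for basal and 1.84 (0.832 and 3.41) for overexpression sites. The pooled density of the 9 genes lay within these quartiles, but most single genes did not in the basal list. In both lists KCNJ5 (4.62 and 4.62), KCNK3 (6.40 and 4.26) and CLCN2 (5.20 and 6.06) lay above them, and KCNK9 and CYP11B1 below. AGTR1 (0.689) and CACNA1H (0.593) lay below in the basal list alone, and CACNA1D and CYP11B2 lay within in both.

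**Figure D2:**
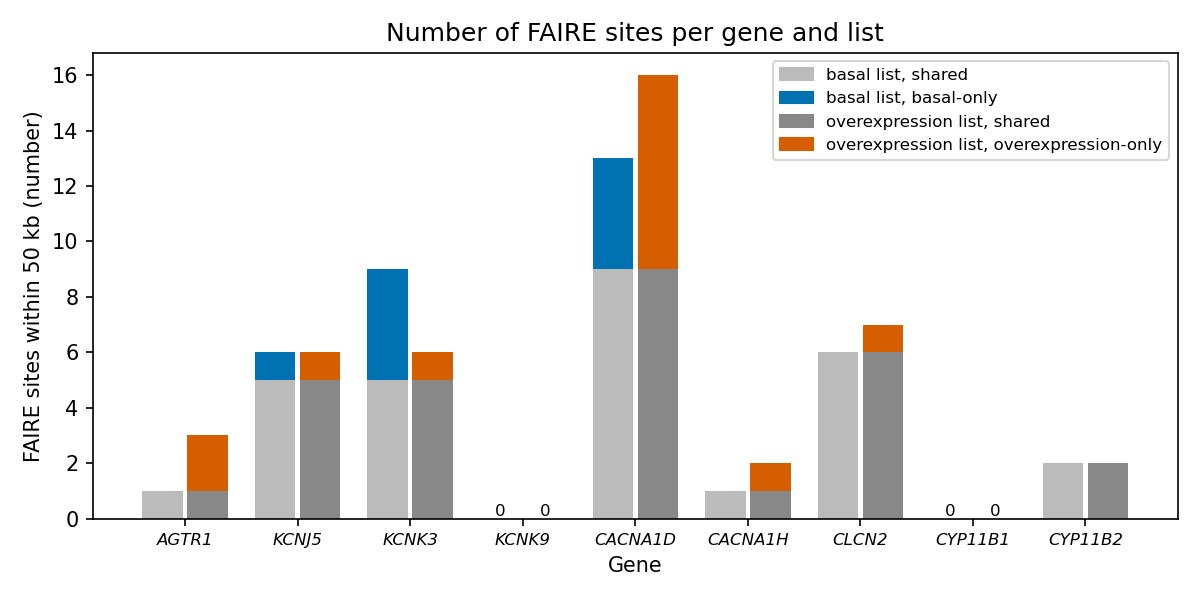
Number of FAIRE sites within 50 kb (vertical axis) of each gene (horizontal axis), with the basal list on the left of each pair of bars and the overexpression list on the right. Shared sites are gray and condition-only sites are colored. CACNA1D held the most sites, 13 and 16, and KCNK9 and CYP11B1 held 0.

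AGTR1, the angiotensin II receptor (chr3:148415571-148460795, plus strand), had 1 basal site and 3 overexpression sites. The shared site lay over its 5′ end, at chr3:148415551-148415849 in basal and chr3:148415501-148415799 in overexpression conditions, 299 bp wide in each. It overlapped the untranslated part of exon 1 of the canonical transcript. The place of a site in its list is given here as its peak number in percent of the list. The submitters numbered peaks from 1, wider sites tended to come first (Spearman's rho of number and width across basal sites was -0.784 and across overexpression sites -0.791), and the quantity behind the order was not stated. The AGTR1 start site stood at 58.3% for basal and 42.1% for overexpression conditions.

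The other AGTR1 sites were called in overexpression conditions only. One of 249 bp at chr3:148413851-148414099 stood at 51.3% of the list and carried CAAGGTCA on the minus strand at chr3:148413916-148413923. That match lay inside the processed pseudogene RPL38P1 (chr3:148413781-148413991), where reads may match other copies, and how multiply matching reads were handled was not stated. The other, also of 249 bp, lay in intron 2 at chr3:148445201-148445449, with a CTCF motif (the insulator protein, up to 1 mismatch), at 56.6%.

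KCNJ5, the potassium channel GIRK4 (chr11:128761251-128791058, plus strand), had 6 sites in each list, 5 of them shared. Its earliest site in both lists lay in intron 1 of 2, at chr11:128764551-128764849 (299 bp, 12.4% of the basal list) and at chr11:128764601-128764949 (349 bp, 7.83% of the overexpression list). The basal-only site at chr11:128762051-128762149 was 99 bp wide, the minimum in either list, and stood at 99.8% of the basal list. It was 687 bp from an annotated start and was the reason KCNJ5 counted as having a basal site at its start. The overexpression-only site (chr11:128729851-128730049, 199 bp) lay 31202 bp upstream. The nearest flanking site, 6352 bp upstream, was 199 bp wide in both lists.

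Downstream of KCNJ5 a shared site lay inside TP53AIP1, a p53 target gene, at chr11:128806501-128806849 and chr11:128806601-128806899. It was 864 bp (basal) and 814 bp (overexpression) from an annotated transcript start within that gene. It held the SF-1 motif CAAGGTCA at chr11:128806731-128806738. It also held a match to the NRSF/REST motif with at most 1 mismatch at chr11:128806754-128806769, whose letters were TTAGAGACAAAGACAG. No other site near the 9 genes had such a match, and 0.927% of all basal and 1.08% of all overexpression sites had one.

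KCNK3, the background potassium channel TASK-1 (chr2:26915590-26956288, plus strand), had 9 basal and 6 overexpression sites, and it was the 1 gene of the 9 with more basal than overexpression sites. Per 100 kb these were 6.40 and 4.26. No site lay within 1 kb of its start. All sites in its body lay in intron 1, its single intron, 4 of them basal and 2 overexpression sites. Of its 4 basal-only sites, those in intron 1 were chr2:26921201-26921349 (149 bp, 62.7% of the list) and chr2:26943201-26943499 (299 bp, 18.9%), the latter with the SF-1 motif CAAGGTCA on the minus strand.

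Both shared intronic sites of KCNK3 stood earlier in the overexpression than in the basal list. The site at chr2:26947051-26947549 was 499 bp wide and stood at 13.2% of the basal list, and its overexpression counterpart, chr2:26947101-26947649, was 549 bp wide and stood at 12.0%. This was the widest site near the 9 genes in each list, and it contained both SF-1 motif forms, with starts 72 bp apart, and an AP-1 motif. The other, starting at chr2:26932651 in both lists, was 299 bp wide at 29.3% and 399 bp wide at 8.19%. The other basal-only sites, each of 249 bp, lay downstream. The farther one (chr2:26986951-26987199) overlapped the starts of CENPA, which encodes a centromeric histone, and of SLC35F6, and the nearer one (chr2:26980951-26981199), 24663 bp from KCNK3, held an AP-1 motif. An overexpression-only site of 299 bp (chr2:26972851-26973149) lay 16563 bp downstream of KCNK3 at 18.4% of the list. The nearest flanking site, shared, lay 12313 bp downstream in the basal list (chr2:26968601-26968849, 249 bp, 31.5%). Its overexpression counterpart, chr2:26968651-26968849, was 199 bp wide and stood at 74.7%.

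KCNK9, the related channel TASK-3 (chr8:140613081-140716352, minus strand), had no site of either list in a window of 203272 bp. The nearest basal site lay 159949 bp and the nearest overexpression site 86699 bp upstream of the gene body, both inside the neighboring gene TRAPPC9. Chromosome 8 as a whole held 0.812 basal and 0.698 overexpression sites per 100 kb.

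CACNA1D, which encodes the L-type calcium channel Cav1.3 (chr3:53362990-53847760, plus strand), had the most sites, 13 basal and 16 overexpression, in the longest window. Per 100 kb these were 2.22 and 2.74. Of them 9 were shared in each list, 4 were basal-only and 7 overexpression-only. Nearly all lay in the gene body, 12 basal and 15 overexpression. The flanking site, shared, lay 29091 bp upstream in the basal list (chr3:53333651-53333899). The body begins 165648 bp before the canonical start, at 1 of its 26 annotated transcript starts, and this first stretch held 5 basal and 6 overexpression sites. One of those, shared and 5.34% into the basal list (chr3:53381501-53381799), covered the start of DCP1A, an mRNA decapping factor gene. No site lay within 1 kb of a CACNA1D start.

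Intron 3 of CACNA1D, 149058 bp long, carried 6 of the 7 basal and all 9 overexpression sites of the canonical transcript. The seventh basal site lay in intron 2. The remaining 162955 bp of the gene had no site in either list. The earliest basal site was chr3:53557751-53558099 (349 bp, 3.88% of the basal list), called at chr3:53557801-53558099 in the overexpression list (299 bp, 13.4%). A site of 399 bp at chr3:53571901-53572299, which with the one at chr3:53371401-53371799 was the widest basal site of the gene, stood at 11.4% and was called at 249 bp and 57.0% on overexpression. The site at chr3:53579401-53579749 (349 bp, 40.4%) held an NBRE that its 149 bp overexpression counterpart, at 96.8% of that list, no longer covered.

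The condition-only sites of CACNA1D lay in its first stretch and in introns 2 and 3. The widest basal-only site had 349 bp (chr3:53519951-53520299), lay 8339 bp before the canonical start and held no SF-1 motif. That motif was in the basal-only site at chr3:53619701-53619849 (149 bp, 77.5%). Among the 7 overexpression-only sites, 3 held it. They were chr3:53455001-53455199 (199 bp, 73.7%, with an AP-1 motif), chr3:53593701-53593949 (249 bp, 65.7%) and the widest, chr3:53676351-53676649 (299 bp, 21.4%). The other overexpression-only sites were 99 to 249 bp wide.

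CACNA1H, the T-type calcium channel Cav3.2 gene (chr16:1203106-1271771, plus strand), had 1 basal and 2 overexpression sites and none within 1 kb of a start. The shared site lay 15157 bp upstream in the basal list (chr16:1187651-1187949, 299 bp), at 7.99% of that list. Its overexpression counterpart (chr16:1187601-1187849, 249 bp) stood at 49.2%. It contained the SF-1 motif CAAGGCCA on the minus strand and an AP-1 motif. The overexpression-only site, 199 bp at chr16:1211051-1211249, lay in intron 2 at 64.9% of the list, 875 bp from the start of a noncoding RNA gene on the other strand.

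CLCN2, the chloride channel gene (chr3:184063973-184079438, minus strand), had 6 sites in the basal list, each of them shared, and 7 in the overexpression list. The shared site at its start, 199 bp at basal dosage (chr3:184079401-184079599) and 249 bp on overexpression (chr3:184079401-184079649), also covered the start of POLR2H. The site cannot be assigned to one of the 2 genes. In each list 4 of the sites lay at starts of other coding genes, 1 at PSMD2, 1 at EIF4G1 and 2 at POLR2H. The overexpression-only site (chr3:184069401-184069599, 199 bp, 42.3%) lay in intron 22 of 23. The nearest flanking site, shared and called at chr3:184063551-184063849 in both lists, lay 124 bp downstream and held a CTCF motif. Of the 6 shared pairs, 5 were wider in the overexpression list and 1 had the same width.

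CYP11B2, the aldosterone synthase gene (chr8:143991975-143999259, minus strand), had 2 shared sites in each list and no condition-only site. They lay 22142 and 37342 bp upstream in the basal list, the nearest at chr8:144021401-144021699, and neither list had a site in the gene or at its start. Both were 299 bp wide at basal dosage and 199 bp on overexpression, and their places differed, from 21.3% to 76.3% and from 27.9% to 71.5%. The farther one held the SF-1 motif. CYP11B1 (chr8:143953772-143961262, minus strand) had no site in its window. Its nearest basal site was the nearer CYP11B2 site, 60139 bp upstream, and its nearest overexpression site lay 55773 bp downstream and was overexpression-only. CYP11B1 and CYP11B2 are similar in sequence, and any reads that match both could have been dropped or divided, so the lack of calls in the genes themselves is uncertain.

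**Figure D3:**
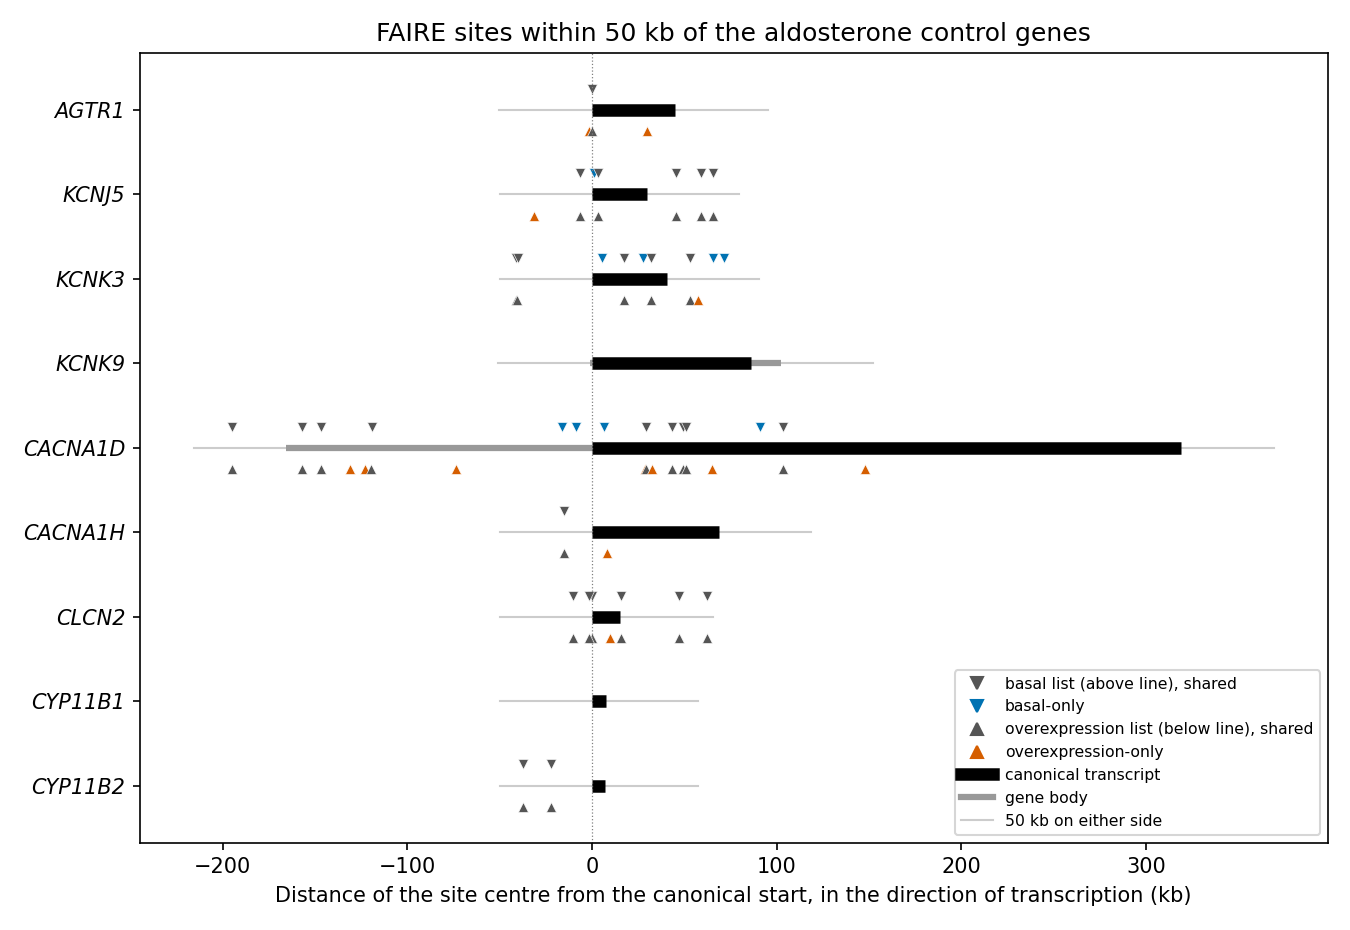
Centers of the FAIRE sites near each gene (vertical axis) by distance in kb from the canonical start in the direction of transcription (horizontal axis). Basal sites are above and overexpression sites below each gene line, gray when shared and colored when condition-only, and bars mark the canonical transcript (black) and gene body (dark gray). Sites in the body of CACNA1D lie in its first stretch and in introns 2 and 3, and none lies in the last 162955 bp.

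At gene starts, a basal site within 1 kb was found for 3 of 9 genes (AGTR1, KCNJ5 and CLCN2), against 46.7% of all protein-coding genes, and an overexpression site for 2 (AGTR1 and CLCN2), against 48.9%. The GC content around starts with and without a site overlapped. The 1001 bp around the canonical starts of KCNK3, KCNK9, CACNA1D and CACNA1H held 69.4%, 74.2%, 70.1% and 84.1% GC. Among all genes with at least 65% GC around the 5′ end, 44.5% had a basal site and 47.8% an overexpression site within 1 kb of that end. CYP11B1 had 54.6% GC, in the class of 45 to 55%, where 31.1% of genes had a basal and 32.2% an overexpression site. CYP11B2 had 57.0% GC, in the class of 55 to 65%, where these shares were 51.1% and 53.3%. AGTR1 and KCNJ5, which had a site, were in that class too with 57.3% and 64.1%, and CLCN2 held 70.9%.

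The shared sites were compared between conditions by width and place. Among the 29 pairs, 9 were wider, 7 equal and 13 narrower in overexpression conditions. Of all 18703 pairs, 36.2% were wider and 37.3% narrower. The place was earlier in 11 and later in 18 pairs, with a median shift of -5.64 percentage points (basal minus overexpression place), against -0.902 points over all pairs. A shift to a later place of more than 40 points was seen in 6 pairs, at KCNK3, CACNA1D (2 pairs), CACNA1H and CYP11B2 (2 pairs), and in 7.42% of all pairs. A shift to an earlier place of that size was seen in 1, upstream of CLCN2 (77.2% to 28.2%), and in 5.08% of all pairs. By gene, 7 of the 9 CACNA1D pairs were narrower and later in the overexpression list. Wider sites tended to come first, so width and place are not separate observations. The share of all pairs that were both narrower and later is not given here. None of the CLCN2 pairs was narrower, but in place 3 were earlier and 3 later.

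**Figure D4:**
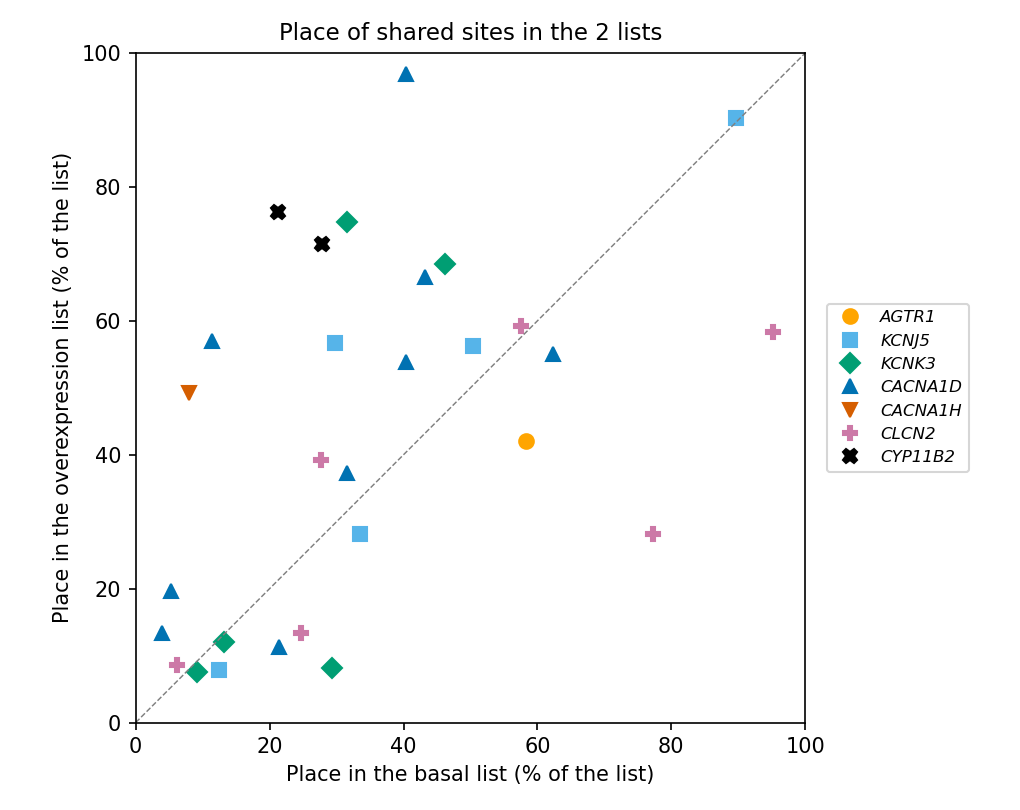
Place of each of the 29 shared sites in the basal list (horizontal axis, peak number in percent of the list) and in the overexpression list (vertical axis), by gene. Points above the dashed line stood later in the overexpression list, as did 18 pairs, among them both CYP11B2 sites.

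By their medians, the condition-only sites were narrower and later in the lists than the shared ones. The basal-only sites had a median width of 249 bp (99 to 349) and a median place of 46.0%, against 299 bp and 29.7% for shared basal sites. The overexpression-only sites had 199 bp (99 to 299) and 58.8%, against 249 bp and 49.2%. In the whole lists, basal-only sites stood at a median of 67.4% and overexpression-only sites at 67.8%, against 32.7% and 35.5% for shared sites. Both condition-only classes had a median width of 199 bp there, against 299 bp for shared basal and 249 bp for shared overexpression sites. The contrast was thus a trait of the whole lists and not particular to these genes.

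The SF-1 motif was found in 7 of 38 basal sites (18.4%, interval 7.74 to 34.3) and 9 of 42 overexpression sites (21.4%, 10.3 to 36.8). Of all sites, 12.7% and 12.6% held it. It was in 4 of the 13 overexpression-only sites (30.8%, 9.09 to 61.4), against 14.0% of all overexpression-only sites, and in 2 of the 9 basal-only sites (22.2%, 2.81 to 60.0), against 13.4%. All of these intervals contain the share of the whole list. A motif match is a run of letters and does not show binding.

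The other motifs were counted in the same way. The AP-1 motif was in 4 sites of each list, 10.5% of the basal and 9.52% of the overexpression sites, against 6.95% and 5.58% of all sites. CTCF matches were in 5 and 6 sites, against 17.5% and 16.0%. The NBRE was in 2 sites of each list, against 2.03% and 2.26%. The CRE, TGACGTCA, which CREB and ATF factors bind, was in none, where a count of 0 allows up to 9.25% of basal and 8.41% of overexpression sites, and 1.32% and 1.46% of all sites held it. The NRSF/REST motif with up to 3 mismatches, a loose criterion, was in 14 and 18 sites, or 36.8% and 42.9%, against 42.8% and 46.8%.

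The rest of the aldosterone pathway was described by 24 genes. Of these, 23 had a site in each list, against 86.3% and 86.5% of all protein-coding genes, and RGS4 had none. A shared site was found at 21 of the 24 (77.0% of all genes), a basal-only site at 18 (60.7%) and an overexpression-only site at 19 (60.6%). A basal site lay at the start of 13 of the 24 (46.7% of all genes) and an overexpression site at the start of 16 (48.9%). Among angiotensin signaling genes, GNA11, a G protein subunit downstream of the receptor, had 1 basal and 5 overexpression sites, and RGS2, which dampens Gq signaling, had 1 and 4. Both had a start site in the overexpression list alone. PLCB1, a phospholipase C, had 15 and 9 sites and a start site in the basal list alone. The other angiotensin signaling genes did not differ in start sites. GNAQ had 10 and 9 sites and a start site in both lists. PLCB3 with 13 and 13 sites and PLCB4 with 2 and 1 had a start site in neither.

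Of the 9 genes of calcium release and sensing, all had sites in both lists (86.3% and 86.5% of all genes had one), and 6 had a basal and 7 an overexpression start site (46.7% and 48.9% of all genes). The inositol trisphosphate receptor genes ITPR1 and ITPR2 had more basal sites (9 and 17) than overexpression sites (6 and 12), and ITPR3 had 4 and 8. Among transcription factors that act on CYP11B2, NR4A1, NR4A2 and CREB1 had start sites in both lists, while ATF1 had 1 condition-only site in each list and none at its start. CADM1, an adhesion molecule gene altered in some aldosterone-producing adenomas, had 15 basal and 4 overexpression sites, 12 of them basal-only. CACNA1C, the Cav1.2 gene, had 14 and 15 sites, close to the counts of CACNA1D. The median over all protein-coding genes was 3 sites in each list, and long genes have long windows.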

How the data were processed

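FAIRE-seq peak lists of H295R/TR SF-1 cells were used, 1 list for basal and 1 for overexpression conditions, out of 4 samples. The 2 input DNA samples were not analysed here. Groups follow the labels. The authors deposited each list as a browser track on hg19 with position, a running peak number and a score. The score deposited by the authors was 1000 for every peak, so it carried no height. The submitters' processing notes name CASAVA 1.8. The authors name ELAND for mapping and CisGenome for peak calling of their immunoprecipitated DNA. For the FAIRE libraries, aligner, peak caller, threshold and the handling of multiply matching reads are not given in the sources used here. Peaks were listed per library and starts lie on a 50 bp grid. Depth is unknown.

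Coordinates were made 1-based and set against GENCODE release 44 on GRCh37. Sites were assigned to a gene by any overlap with its body or 50 kb on either side. Sites of both lists that overlapped by at least 1 bp were called shared, and for the stricter lists this was decided among the sites kept. Gene start means within 1 kb of any annotated transcript start. The full length of each site was scanned for motifs on either strand, and a motif that reads alike on both strands was counted once per site. Analyses used Python 3.11.15, numpy 2.4.6, scipy 1.17.1 and matplotlib 3.10.9, and the overlap and motif steps were tested on simulated data. No test between conditions was possible with 1 library each, and sites are not replicates.

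The genes, the pathway list and the choices above were made with earlier results of these data known. Named sites were those within 1 kb of a start of one of the 9 genes or centered in its body (for genes with more than 8 such sites, the widest and those with a motif), the nearest flanking site and sites at starts of neighboring coding genes. Other flanking sites were named after their values were seen. Alternatives covered the window, stricter lists, overlap, the start distance and motif mismatches.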

Additional observations from a re-analysis of the deposited data

How the results depend on the processing

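Of 68 recomputed values of 18 results, 47 stayed within 1.5 times the main value and 21 did not. No paired analysis was possible because each condition had 1 library and the labels carry no replicate numbers. A 10 kb window, which takes in fewer sites by construction, left 23 basal sites (38 at 50 kb), 16 shared ones, and, over both lists, 5 at KCNJ5, 6 at KCNK3, 1 at CACNA1H, 8 at CLCN2 and 0 at CYP11B2. A 100 kb window took in 17 basal-only sites, as many as overexpression-only ones (17), and, over both lists, 10 at AGTR1, 1 at KCNK9, 7 at CACNA1H and 5 at CYP11B1. Keeping sites of at least 249 bp left 26 overexpression sites, 17 shared sites and 1 gene with a basal start site, AGTR1, and 12 basal-only against 9 overexpression-only sites (9 and 13 in the full lists). Keeping the first 50% of each list by peak number left 19 overexpression, 14 basal-only, 6 overexpression-only and 13 shared sites. Sharing was decided anew among the sites kept, so a site whose partner was cut counted as condition-only. By this rule both stricter lists turned the order of the condition-only counts. With 1 mismatch allowed, 57 sites of both lists held the SF-1 motif in place of 16. Chosen after seeing the data were the canonical transcript as gene body (34 basal and 35 overexpression sites), the removal of sites at starts of other coding genes (31 and 36), and an NRSF/REST motif with 1 mismatch (2 sites in place of 32). Depth, peak height and read mapping are unknown, so sites near the calling threshold cannot be told apart from sites that changed, and no count has a replicate error.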
